A study of Mus musculus with 4 samples.

Results

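The genes described here are 32 regulators and markers of the nervous system and the neural crest, read in 4 lists of H3K27ac ChIP-seq peaks. They make up 32 of the 21581 protein-coding genes of the annotation and were named as a list of genes, not by their peaks. Every peak interval within 100 kb of a start site of a member was taken, which gave 131 of 40899 intervals for limb EGFP+, 112 of 34360 for limb EGFP−, 107 of 36231 for trunk EGFP+ and 101 of 30716 for trunk EGFP− cells. An interval between 2 kb before and 500 bp after a start site is called a promoter interval, and one outside every such window of any protein-coding gene is called distal.

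H3K27ac is an acetylation of histone H3 found at active promoters and enhancers. All cells came from mouse fetuses at E14.5 with the Col2a1-EGFP genotype, derived by tetraploid aggregation from G4 embryonic stem cells that carry an EGFP sensor with a minimal promoter upstream of Col2a1, a collagen gene of cartilage. EGFP+ cells are therefore largely chondrocytes, and EGFP− cells are the mixed remainder of the tissue. Limbs comprised the fore- and hindlimbs, and trunks ran from neck to tail without internal organs. The sources used here do not state whether spinal cord and ganglia stayed in the trunk tissue. There was 1 library for each of the 4 populations, from pooled fetuses, so no test between populations was possible and no value carries replicate error. Limb and trunk libraries carry different lane names, and lane cannot be told apart from tissue. More than 1 read length is given for the libraries, and the protocol in the sample labels names more than 1 sonicator, in neither case with an assignment, and the part of either was not tested. In a mixed population, fewer cells of a type and less acetylation per cell cannot be told apart.

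The neural tube, which forms the brain and spinal cord, is patterned by progenitor factors such as Sox2, Pax6, Olig2 and Nkx2-2, after which proneural factors such as Neurog1 and Neurog2 start neuronal differentiation. The neural crest leaves the dorsal neural tube, carries factors such as Tfap2a and Foxd3, and gives rise to sensory and autonomic neurons and to glia. Axons of spinal neurons and crest-derived glia reach the limb, while neuronal cell bodies lie in or beside the spinal cord. Trunk EGFP− cells against limb EGFP− cells is therefore the comparison of interest.

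The sequences below surround the summits of the 4 strongest of 13 distal peaks listed in trunk EGFP− cells and not in limb EGFP− cells. They hold the summit base and 100 bases on each side, on the plus strand of GRCm39, and capitals mark matches to 6 motifs searched on both strands. They are the E-box CAGCTG and the E-box CAGATG, both of proneural factors, the SOX motif ACAAAG, the homeodomain motif TAATTA, the AP-2 motif GCCNNNGGC and the GATA motif AGATAA. The Mnx1 sequence lies at chr5:29593025-29593225 and the Tubb3 sequence at chr8:124153718-124153918 in an intron of Def8. The Nkx6-1 sequence lies at chr5:101889378-101889578 in an intron of noncoding genes, and the Th sequence at chr7:142570085-142570285 in an intron of Tspan32. None of these peaks had the named member as its nearest coding gene, which was Lmbr1, Def8, Cds1 and Tspan32 in that order. All but the Mnx1 peak were shared with an EGFP+ list.
Mnx1 window: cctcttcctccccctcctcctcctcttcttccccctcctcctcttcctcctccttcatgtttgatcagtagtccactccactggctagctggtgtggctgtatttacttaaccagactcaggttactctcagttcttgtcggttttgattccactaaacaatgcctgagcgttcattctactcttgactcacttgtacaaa
Tubb3 window: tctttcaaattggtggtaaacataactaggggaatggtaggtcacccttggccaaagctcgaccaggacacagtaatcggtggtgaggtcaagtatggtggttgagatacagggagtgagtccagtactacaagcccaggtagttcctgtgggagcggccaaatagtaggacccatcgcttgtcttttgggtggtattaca
Nkx6-1 window: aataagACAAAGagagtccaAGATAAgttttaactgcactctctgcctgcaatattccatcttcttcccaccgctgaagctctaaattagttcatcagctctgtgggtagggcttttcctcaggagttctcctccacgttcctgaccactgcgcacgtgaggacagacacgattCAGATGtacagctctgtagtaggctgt
Th window: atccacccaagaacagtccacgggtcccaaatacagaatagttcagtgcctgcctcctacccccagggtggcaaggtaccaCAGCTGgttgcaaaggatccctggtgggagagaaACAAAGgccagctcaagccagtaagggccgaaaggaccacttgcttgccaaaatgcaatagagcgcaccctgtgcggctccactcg
The Nkx6-1 sequence held the second E-box, the SOX motif and the GATA motif once each, and the Th sequence held the first E-box and the SOX motif once each. The Mnx1 and Tubb3 sequences held none of the searched letters. Among the 11711 distal intervals of trunk EGFP− cells near any protein-coding gene, windows of the same length held the first E-box in 16.3%, the second in 16.3%, the SOX motif in 17.2%, the homeodomain motif in 2.56%, the AP-2 motif in 8.72% and the GATA motif in 7.09%. Of the 34 such windows near the members, 4 held the first E-box, 6 the second, 3 the SOX motif, 1 the homeodomain motif, 2 the AP-2 motif and 1 the GATA motif.

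Promoters of the members were mostly without a peak in every population. A promoter interval was listed for 5 of the 32 members in limb EGFP+, 7 in limb EGFP−, 3 in trunk EGFP+ and 5 in trunk EGFP− cells. Over all protein-coding genes the same shares were 54.4% in limb EGFP+, 51.6% in limb EGFP−, 52.6% in trunk EGFP+ and 52.7% in trunk EGFP− cells, against 15.6%, 21.9%, 9.38% and 15.6% of the members. The exact 95% interval of the members' share, which covers counting error only, ran from 5.28% to 32.8% in trunk EGFP− cells and from 9.28% to 40.0% in limb EGFP− cells. No list held a promoter interval for 22 members, or 68.8%, where the share over all genes was 41.3%. The other 10 comprised 3 members in 1 list, 5 in 2 lists, Erbb3 in 3 lists and Elavl4 in all 4.

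**Figure D1:**
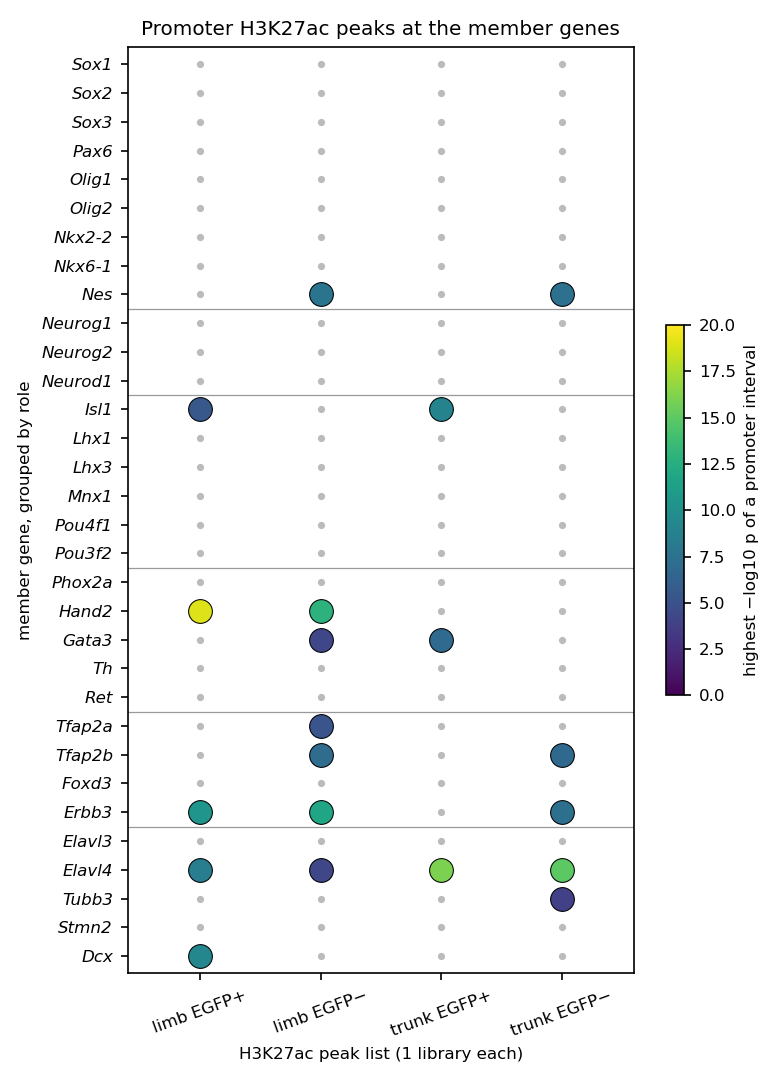
Highest −log10 p of a promoter H3K27ac interval at each of the 32 members (rows, grouped by role) in each of the 4 lists (columns, 1 library each). Large coloured circles are listed intervals and small grey dots stand for no listed interval; 22 members have no circle, and Elavl4 alone has 4.

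Among the neural progenitor genes, 8 of 9 lacked a promoter interval in all 4 lists, namely the SOXB1 factors Sox1, Sox2 and Sox3, the paired-box factor Pax6, the oligodendrocyte and motor neuron progenitor factors Olig1 and Olig2, and the ventral patterning factors Nkx2-2 and Nkx6-1. The exception was Nes, which encodes the intermediate filament nestin of neural stem cells and also of some muscle and endothelial cells. A promoter interval had a −log10 p of 7.72 with 19 summit reads in limb EGFP− cells, and another had 7.38 with 25 reads in trunk EGFP− cells. These intervals did not overlap, and neither EGFP+ list held one. The listed Nes intervals thus sat in the EGFP− populations of both tissues, at like −log10 p but at different places in the promoter window. None of the 3 proneural genes, Neurog1, Neurog2 and Neurod1, had a promoter interval in any list.

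Of the 6 neuronal subtype factors, Lhx1, Lhx3, Mnx1, Pou4f1 and Pou3f2 had none. Isl1, a LIM homeodomain factor of motor and sensory neurons that is also used in hindlimb and heart progenitors, had a promoter interval in the EGFP+ lists alone, with a −log10 p of 5.41 and 11 reads in limb EGFP+ cells and 8.95 and 17 reads in trunk EGFP+ cells. Both EGFP− lists held no peak at its start sites.

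Autonomic genes were marked at 2 of 5 promoters, neither of them in trunk EGFP− cells. Hand2, a basic helix-loop-helix factor of sympathetic neurons that also patterns the posterior limb bud, had a −log10 p of 18.96 with 47 reads in limb EGFP+ cells and 12.9 with 40 reads in limb EGFP− cells. Gata3, a zinc-finger factor of sympathetic neurons and other lineages, had 6.86 with 11 reads in trunk EGFP+ cells and 4.26 with 9 reads in limb EGFP− cells. Phox2a, a homeodomain factor of noradrenergic neurons, Th, the rate-limiting enzyme of catecholamine synthesis, and Ret, the receptor of GDNF family ligands, had no promoter interval in any list.

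Of the neural crest and glial genes, 3 of 4 had a promoter interval. Tfap2b, an AP-2 factor, had 2 intervals in limb EGFP− cells, of −log10 p 4.48 and 6.96, and 1 in trunk EGFP− cells, of 6.77. The trunk EGFP− interval, which counts through an alternative start site, overlapped neither of the limb EGFP− intervals. Erbb3, the neuregulin receptor of Schwann cell precursors, had its highest −log10 p at 10.4 in limb EGFP+, 11.8 in limb EGFP− and 7.32 in trunk EGFP− cells, with no interval in trunk EGFP+ cells. Tfap2a, an AP-2 factor that the limb ectoderm uses as well, was listed in limb EGFP− cells alone, at an alternative start site, with 5.17. Foxd3, a forkhead factor of crest progenitors, was listed in none.

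Of the 5 general neuronal genes, Elavl4, which encodes a neuronal RNA-binding protein, was the only member with a promoter interval everywhere. It lay at a start site upstream of the canonical one and had a −log10 p of 8.37 with 16 reads in limb EGFP+, 4.28 with 8 reads in limb EGFP−, 16.05 with 22 reads in trunk EGFP+ and 15.0 with 21 reads in trunk EGFP− cells. Both trunk lists were therefore above both limb lists, and the exact 95% Poisson interval of the reads in trunk EGFP− cells, which reached up to 32.1, overlapped that in limb EGFP− cells, 3.45 to 15.8, at its lower end. Dcx, a microtubule protein of migrating neurons, was listed in limb EGFP+ cells alone, at 9.26 with 15 reads. Elavl3 and Stmn2 had no promoter interval in any list.

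In the contrast of the EGFP− populations, 1 member had a promoter interval in trunk EGFP− and none in limb EGFP− cells, and 3 members had the reverse. Over all genes these shares were 3.25% and 2.17%, and 1 and 3 of 32 members are 3.13% and 9.38%. At the 20000 strongest intervals per list the order turned to 2 against 1, and at a fold of at least 4 it was 1 against 1. Tubb3, the neuronal class III beta-tubulin, was the trunk EGFP− gene. Its interval had 12 reads, with an exact 95% interval of 6.20 to 21.0, a fold of 2.73 over local background and a −log10 p of 3.82, which placed it at the 97.6th percent of its list when ranked from the strongest. At the same local background 12 reads were needed for a listing in limb EGFP− cells, the number that the trunk peak had. Absence of a limb peak at Tubb3 is therefore not readable as a difference at this depth. The reverse members were Hand2, Gata3 and Tfap2a. At Hand2 the lower bound of its 40 limb EGFP− reads, 28.6, lay above the 22 reads needed in trunk EGFP− cells. At Gata3 the lower bound was 4.12 against 8 reads needed, and at Tfap2a 14.6 against 20.

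The listed promoter intervals of members were also weak. Their median −log10 p was 9.26 in limb EGFP+, 6.68 in limb EGFP−, 8.95 in trunk EGFP+ and 7.04 in trunk EGFP− cells, beside 22.7, 18.4, 18.2 and 17.0 over all promoter intervals of the same lists. In trunk EGFP− cells their median of 24 summit reads stood beside 40 for all promoter intervals. No promoter interval of a member ranked above the 30.3rd percent of its list, the place of Hand2 in limb EGFP+ cells.

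Other gene lists show which parts of the tissue the same libraries registered. Of 60 other neural genes, 11 had a promoter interval in limb EGFP+, 5 in limb EGFP−, 7 in trunk EGFP+ and 7 in trunk EGFP− cells, and 45 had none in any list. Those in trunk EGFP− and not limb EGFP− cells were Pou3f3, a POU factor, with a −log10 p of 5.34, Ntrk2, a neurotrophin receptor, with 4.32, Rbfox3, the neuronal nuclear antigen, with 6.58, and Stmn3, a stathmin, with 5.91. Rbfox3 and Stmn3 were listed in no other population, with 13 and 11 reads where 9 and 8 were needed in limb EGFP− cells. Their lower bounds, 6.92 and 5.49 reads, lay under those numbers. Lhx9 and Map2 showed the reverse, with 9.94 and 4.78. Limb EGFP+ cells also listed both, at up to 13.5 and 10.7, and trunk EGFP+ cells listed Map2 at 7.39. The lower bound of the Lhx9 reads, 19.4, lay above the 18 needed in trunk EGFP− cells. That of the Map2 reads, 4.80, lay under the 9 needed.

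Of 25 endothelial and blood genes, 6, 5, 5 and 4 had a promoter interval in the order limb EGFP+, limb EGFP−, trunk EGFP+ and trunk EGFP−. In the same order the counts were 2, 6, 2 and 5 of 22 skin epithelium genes, and 1, 3, 1 and 3 of 16 skeletal muscle genes. Chondrocyte genes stood at 22, 8, 21 and 7 of 24, so both EGFP+ lists carried the sorted cell type at most of its promoters. In trunk EGFP− cells the members' 15.6% lay beside 22.7% for skin, 18.8% for muscle and 16% for endothelium and blood, with overlapping intervals.

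**Figure D2:**
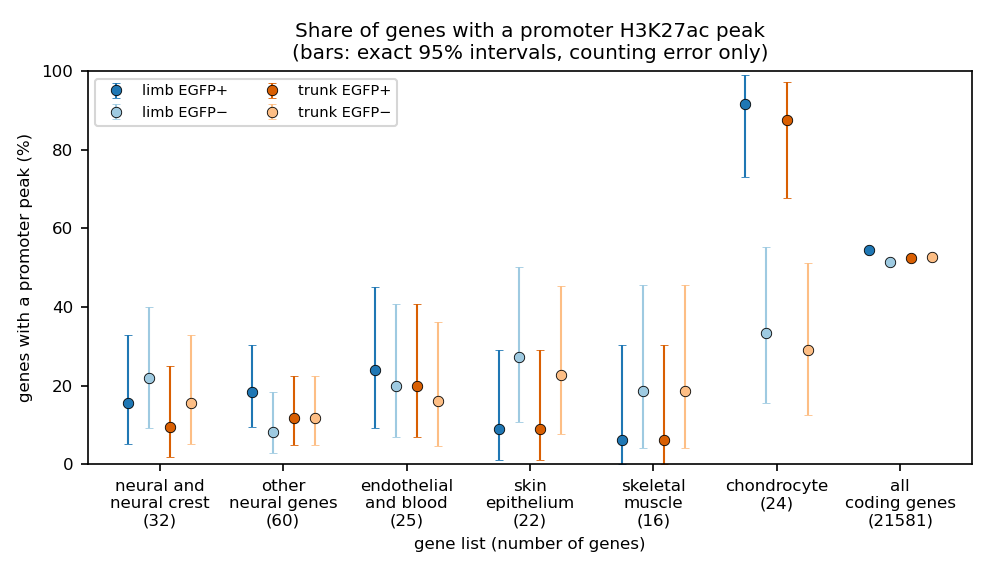
Share of genes with a promoter H3K27ac interval (y axis, percent) for each gene list (x axis) in the 4 lists, with exact 95% intervals for counting error. The members lie between 9.38% and 21.9%, while chondrocyte genes reach 91.7% in limb EGFP+ and 87.5% in trunk EGFP+ cells and all coding genes lie between 51.6% and 54.4%.

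Most members had CpG-rich promoters, the kind that is marked by H3K27ac at most genes in these lists; the split was made after the values were seen. A promoter was taken as CpG-rich where the 500 bp on each side of the canonical start site had at least 50% GC and an observed over expected CpG ratio of at least 0.6. By this measure 23 of 32 members were CpG-rich, 71.9% against 46.2% of all genes. Of all CpG-rich genes 81.0% had a promoter interval in limb EGFP− and 82.9% in trunk EGFP− cells, while 4 and 2 of the 23 CpG-rich members did, or 17.4% and 8.70%. In any list it was 6 of 23, or 26.1%, beside 88.6%. CpG-poor members had a promoter interval in 3 of 9 cases in trunk EGFP− cells, 33.3%, beside 26.7% of all CpG-poor genes. These were Elavl4, Erbb3 and Tfap2b. In trunk EGFP− cells Elavl4 and Tfap2b were marked at a start site other than the one measured for CpG. Erbb3 fell just under the cutoff with a ratio of 0.594.

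**Figure D3:**
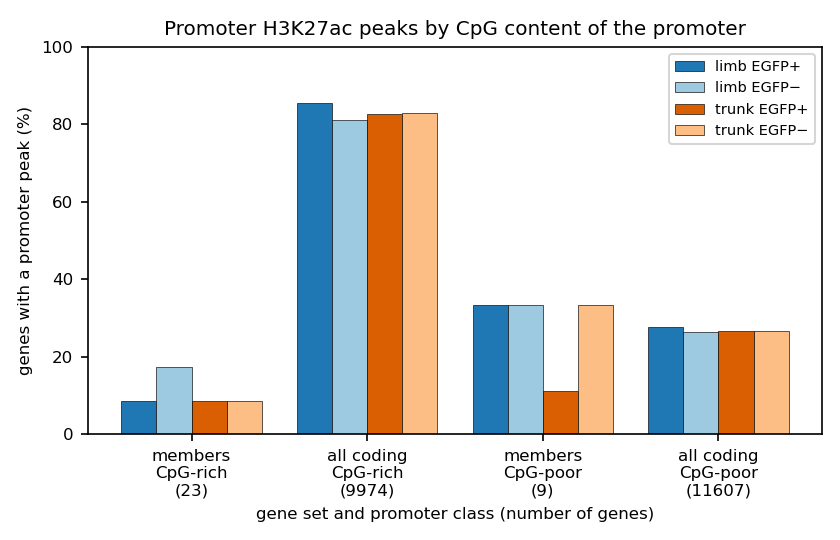
Share of genes with a promoter H3K27ac interval (y axis, percent, from 0) among CpG-rich and CpG-poor members and among all CpG-rich and CpG-poor coding genes, with 1 bar per list. CpG-rich members reach at most 17.4%, where all CpG-rich genes lie at 81.0% or above.

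Distal intervals near the members numbered 60 in limb EGFP+, 42 in limb EGFP−, 37 in trunk EGFP+ and 34 in trunk EGFP− cells. The lists differ in length. These counts were 0.332%, 0.299%, 0.239% and 0.290% of the 18051, 14070, 15509 and 11711 distal intervals near any protein-coding gene. The members' windows made up 0.4001% of the bases covered by the windows of all protein-coding genes, so each of these shares lay below that of the bases. At the 20000 strongest intervals per list the counts near members were 14, 16, 12 and 13. At least 1 distal interval was listed for 19, 12, 16 and 17 members in that order, or 59.4%, 37.5%, 50.0% and 53.1%, beside 64.6%, 64.3%, 63.5% and 60.1% of all protein-coding genes. In 9 members no list held a distal interval. The windows of Sox3, Olig2, Nkx2-2, Neurod1 and Stmn2 held no interval of any kind in any list. Each of these windows held 0 or 1 other coding genes. The shares of all genes for these 2 counts were not worked out, so neither is shown to be particular to the members. The median distance from a member's start site to the nearest interval of any kind was 38.0 kb in limb EGFP+, 56.3 kb in limb EGFP−, 58.6 kb in trunk EGFP+ and 56.3 kb in trunk EGFP− cells. Over all genes it was 0.196, 0.430, 0.334 and 0.318 kb. Promoter intervals count here, so this contrast of medians follows from the promoter shares above and says nothing more about distal intervals.

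Between the EGFP− populations, the members' counts of 34 and 42 were like shares of all distal intervals, 0.290% in trunk and 0.299% in limb cells. Of the 34 in trunk EGFP− cells, 13 had no overlapping limb EGFP− interval, or 38.2% with an exact interval of 22.2% to 56.4%, where the share over all genes was 44.4%. Of the 42 in limb EGFP− cells, 21 had no trunk EGFP− interval, or 50.0% with 34.2% to 65.8%, where the share over all genes was 51.7%. The lower bound of the reads lay above the number needed in the other list for 1 of the 13 and 4 of the 21. In the EGFP+ populations 14 of 37 trunk intervals had no limb counterpart, 37.8% beside 38.5%. Of 60 limb intervals, 39 had no trunk counterpart, 65.0% with 51.6% to 76.9%, beside 48.2%. The windows of Hand2 and Neurog1 held 9 and 7 of these 39. By gene, 8 members, or 25%, had more distal intervals in trunk EGFP− than in limb EGFP− cells, beside 20.2% of all genes, and 5 members, or 15.6%, had fewer, beside 33.6%. A further 5 had the same number above 0 and 14 had none in either.

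The limb EGFP− count rested on Neurog1 and Hand2, which held 20 of its 42 intervals. Without these windows, a split made after the values were seen, 22 intervals remained in limb EGFP− and 26 in trunk EGFP− cells, so the order turned, and 9 against 12 were without a counterpart. An interval in a window need not belong to the member, and the nearest protein-coding start site was a member's for 26 of 60 intervals in limb EGFP+, 13 of 42 in limb EGFP−, 7 of 37 in trunk EGFP+ and 11 of 34 in trunk EGFP− cells. Of intervals without a counterpart, that held for 6 of the 13 in trunk EGFP− and 8 of the 21 in limb EGFP− cells.

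**Figure D4:**
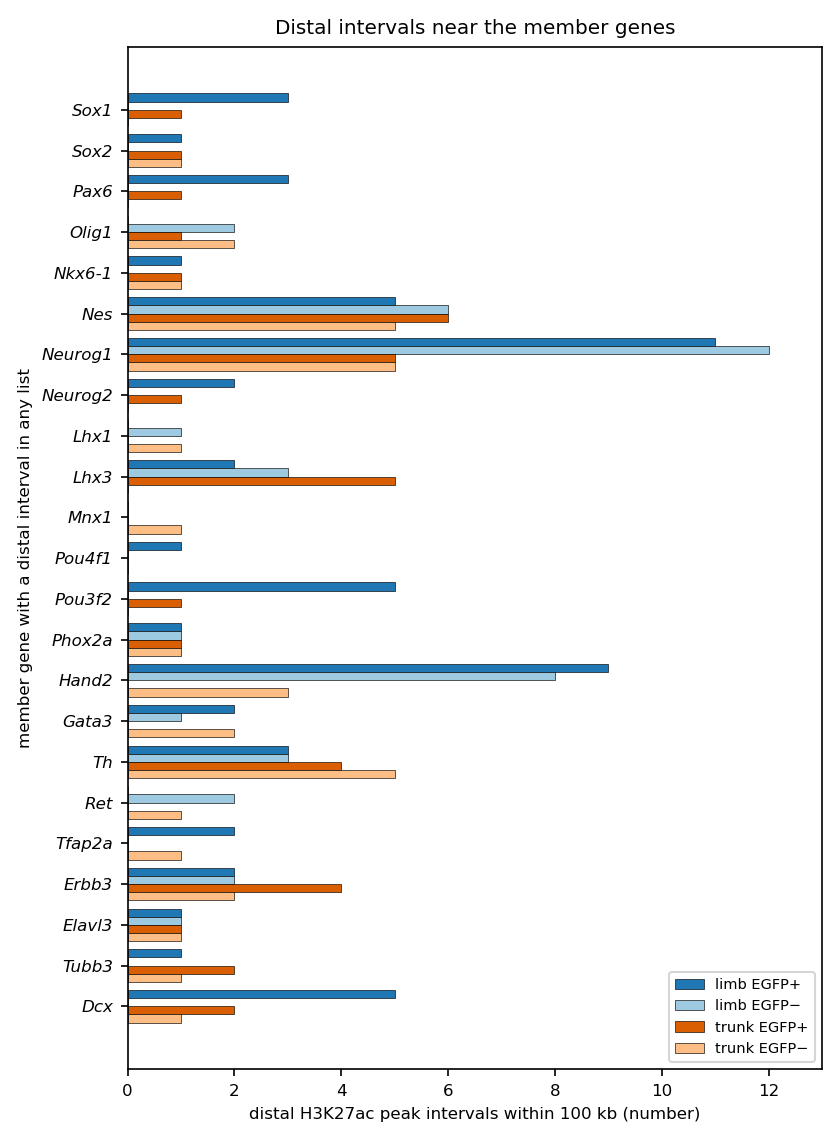
Number of distal H3K27ac intervals within 100 kb (x axis) for the 23 members with at least 1 in any list (y axis), with 1 bar per list. Neurog1 reaches 12 and Hand2 8 in limb EGFP− cells, Hand2 has none in trunk EGFP+ cells, and most other members have 5 or fewer.

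The 10 strongest distal intervals of trunk EGFP− cells without a limb EGFP− counterpart lay near 10 members, with a −log10 p of 6 to 8.89. The strongest was near Mnx1, a motor neuron factor, at +90.5 kb from its start site, with 18 reads, a fold of 4.57 and a −log10 p of 8.89. It was in no other list, its nearest coding gene was Lmbr1, and 11 reads were needed in limb EGFP− cells against a lower bound of 10.7. The Tubb3 interval at +15.7 kb had 8.46 with 20 reads in an intron of Def8, and limb EGFP+ cells shared it at 8.13. Trunk EGFP+ cells had a stronger interval 227 bp away, at 13.3, that the limb EGFP+ interval joins to the same region. The Nkx6-1 interval at −76.4 kb had 8.42 with 18 reads, and trunk EGFP+ cells shared it at 7.204.

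Of the other 7, the interval near Th at −85.3 kb had a −log10 p of 6.65 and lay in Tspan32, and that near Nes at −34.8 kb had 6.597 and lay in Isg20l2; trunk EGFP+ cells shared both, at 9.11 and 7.17. The interval inside Tfap2a at +5.59 kb had 6.23, with 9.45 in limb EGFP+ cells. Those at Sox2 (−80.2 kb, 6.14), Dcx (+1.04 kb, 6.06), Neurog1 (+87.8 kb, 6.02) and Ret (−7.13 kb, 6) overlapped no interval of another list. A weaker limb EGFP− interval, of 3.51 with 7 reads, lay 358 bp from the one at Ret, and the promoter interval of limb EGFP+ cells lay 303 bp from the one at Dcx. Where intervals within 1 kb counted as shared, 11 of the 13 trunk EGFP− and 17 of the 21 limb EGFP− intervals kept no counterpart. The Dcx interval lay in an intron of Dcx, and those at Sox2 and Ret had the member as their nearest coding gene. The Sox2, Dcx and Ret intervals had 12, 12 and 11 reads, where 9, 9 and 8 were needed in limb EGFP− cells, and their lower bounds of 6.20, 6.20 and 5.49 lay under those numbers.

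The 5 strongest of the reverse kind were 3 near Neurog1, with a −log10 p of 12.8, 8.54 and 8.19, and 2 near Hand2, with 8.93 and 8.50. All 5 were also listed in limb EGFP+ cells. None of the intervals in the Neurog1 window had Neurog1 as its nearest coding gene, which was Cxcl14, a chemokine gene, Tifab or Macroh2a1. Its counts were 11 in limb EGFP+, 12 in limb EGFP−, 5 in trunk EGFP+ and 5 in trunk EGFP− cells, with no promoter interval at Neurog1.

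Hand2 had intervals mainly in the limb lists, both at its promoter and around it. It had 9 distal intervals in limb EGFP+, 8 in limb EGFP−, none in trunk EGFP+ and 3 in trunk EGFP− cells. Hand2 was the nearest coding gene for 8, 7 and 3 of these. The 3 trunk EGFP− intervals, at +20.2, +27.99 and +33.0 kb with a −log10 p of 5.43, 4.24 and 7.50, all had a limb EGFP− counterpart, and the interval at +33.0 kb had 16 reads in both EGFP− lists. Listed in both limb populations and in neither trunk population were those near −8.15, +7.44 and +12.99 kb, of −log10 p 8.50, 7.71 and 8.93 in limb EGFP− cells. Sequences around the summits of the outer pair are shown for the limb side of the contrast and were chosen after the values were seen. They lie at chr8:57765762-57765962 in an exon of Hand2os1 and at chr8:57786900-57787100 in an exon of Hdnr, on the plus strand of GRCm39. Neither held any of the searched letters.
Hand2 window at −8.15 kb: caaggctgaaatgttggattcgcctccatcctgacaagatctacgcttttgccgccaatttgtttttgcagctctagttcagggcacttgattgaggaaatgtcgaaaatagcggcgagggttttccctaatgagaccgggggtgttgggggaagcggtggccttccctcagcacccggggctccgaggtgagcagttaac
Hand2 window at +12.99 kb: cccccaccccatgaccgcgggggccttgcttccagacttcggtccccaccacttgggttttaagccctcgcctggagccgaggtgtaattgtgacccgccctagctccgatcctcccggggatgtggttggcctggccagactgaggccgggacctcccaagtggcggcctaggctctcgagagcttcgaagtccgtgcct

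**Figure D5:**
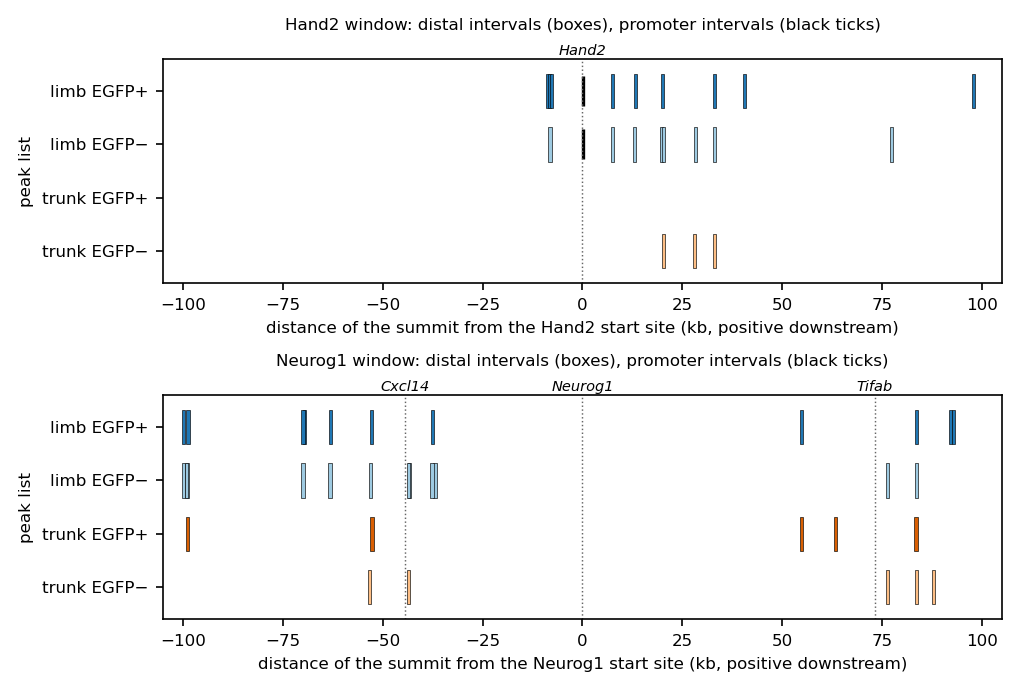
Distal intervals (boxes, drawn at least 0.8 kb wide) and promoter intervals (black ticks) by distance of the summit from the start site (x axis, kb) in the 4 lists (y axis), around Hand2 and Neurog1, with dotted lines at coding start sites. At Hand2 the limb lists hold 9 and 8 distal intervals and the trunk lists 0 and 3, and at Neurog1 the nearest interval lies 36.8 kb from the start site.

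The 5 strongest distal intervals of trunk EGFP− cells were listed in both limb populations too. The first was at −77.4 kb from Th in an exon of Tspan32, with a −log10 p of 35.1 in limb EGFP+, 25.8 in limb EGFP−, 16.9 in trunk EGFP+ and 22.9 in trunk EGFP− cells. The second, at +18.2 kb from Phox2a in Inppl1, had 23.1, 24.2, 15.9 and 22.0 in that order. The third, at −10.4 kb from Nes and with Nes as its nearest coding gene, had 28.4, 39.1, 31.8 and 20.3, so the strongest interval nearest to a member in trunk EGFP− cells was higher in each other list. The fourth lay at −78.4 kb from Th with 13.8 in trunk EGFP− cells, and the fifth at −21.3 kb from Nes in Crabp2 with 13.5.

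Pou3f2, Pax6, Sox1, Neurog2 and Pou4f1 had distal intervals listed in EGFP+ cells and none in EGFP− cells. The share of all genes with this pattern was not counted, and both EGFP+ lists are longer. The pattern is therefore not shown to be particular to these members. Of the joined distal regions near any protein-coding gene, 45.6% had peaks in EGFP+ lists alone. Counts in limb EGFP+, limb EGFP−, trunk EGFP+ and trunk EGFP− cells were 5, 0, 1 and 0 at Pou3f2, 3, 0, 1 and 0 at Pax6, 3, 0, 1 and 0 at Sox1, 2, 0, 1 and 0 at Neurog2, and 1, 0, 0 and 0 at Pou4f1. At Sox1 the interval shared by both EGFP+ lists, near −75.6 kb, had a −log10 p of 6.34 with 13 reads in limb and 12.9 with 21 reads in trunk cells. At Pax6 the shared interval, in an intron of Elp4 near +36.7 kb, had 13.7 with 26 reads in limb and 8.43 with 19 reads in trunk cells. Lhx3 had 2, 3, 5 and 0, with another gene nearer in each case, and Dcx had 5, 0, 2 and 1.

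Joined across lists, the distal intervals near members made 93 regions, of which 51 were in 1 list, 25 in 2, 8 in 3 and 9 in all 4. Regions in 1 list made 54.8%, beside 61.5% of the 33967 regions near any gene. Limb EGFP+ cells alone held 24, trunk EGFP+ cells 10, limb EGFP− cells 9 and trunk EGFP− cells 8, which are 25.8%, 10.8%, 9.68% and 8.60% of the regions, beside 20.7%, 14.2%, 15.2% and 11.4% over all genes. In all, 42 regions, or 45.2%, had peaks in EGFP+ lists alone, beside 45.6% over all genes, and 21, or 22.6%, in EGFP− lists alone, beside 31.4%. Regions in both EGFP− lists numbered 19, while 13 had a trunk EGFP− peak without a limb EGFP− one and 19 had the reverse. The shares of all regions of these 3 kinds were not counted. By interval, 38.2% in trunk EGFP− and 50.0% in limb EGFP− cells had no counterpart, beside 44.4% and 51.7% over all genes.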

How the data were processed

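H3K27ac ChIP-seq peak lists of 4 sorted populations were used, 1 library each. Reads were brought to the same number per library by the authors with Seqtk, then trimmed with cutadapt 1.18, mapped to GRCm39 (mm39) with Bowtie2 2.3.5.1, filtered with SAMtools and called peaks per library with MACS2 2.2.7.1, extending reads to 200 bp. No control library is named in the sources used here. The deposited score is 10 times the −log10 q without decimals, and the deposited −log10 p and −log10 q are the authors' MACS2 values. The deposited fold is the ratio of summit reads to local background after 1 is added to each. For trunk EGFP− cells the label says replicate 1 but the names of the peaks say replicate 2, and the label was followed.

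Entries that shared start and end were merged to 1 interval. Start sites were the 67388 of 21581 protein-coding genes in GENCODE vM39 of GRCm39. Intervals overlapped where they shared at least 1 bp. Summit reads and local background were solved from fold and −log10 p, which succeeded for 100% of intervals, with at least 7 to 8 reads and medians of 24 to 26 per list. The solution and the overlap calls were checked on simulated data with a −log10 p of at least 3, since reads are not unique at lower values, and the lowest deposited value is 3.30. Reads needed in another list are the fewest at the same local background that reach its lowest listed −log10 p. The 95% intervals, Poisson or Clopper-Pearson, are for counting error alone.

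The members and gene lists were chosen with earlier results of these data known. Named were all members, the 10 strongest distal intervals of trunk EGFP− cells without a limb EGFP− interval, 5 of the reverse, the 5 strongest of trunk EGFP− cells, and the other neural genes of each kind. The CpG split, the Hand2 sequences and the split without Neurog1 and Hand2 were chosen after the values were seen. Scripts ran in Python 3.11.15 with scipy 1.17.1, pandas 2.3.3, numpy 2.4.6, matplotlib 3.10.9 and pysam 0.24.0.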

Additional observations from a re-analysis of the deposited data

How the results depend on the processing

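No paired analysis was possible because each population had 1 library. Counts of members and intervals below are in the order limb EGFP+, limb EGFP−, trunk EGFP+ and trunk EGFP−, where given. Of 94 values under 12 alternatives, 49 stayed within 1.5 times the main value. A −log10 q of at least 5 left 27, 19, 17 and 12 distal intervals and promoter intervals at 3 members in limb EGFP− and 1 in trunk EGFP− cells, with 4 distal intervals in trunk EGFP− without limb EGFP− cells and 11 of the reverse. A fold of at least 4 left 22, 13, 14 and 11 distal intervals and promoter intervals at 3 members in limb EGFP+, 1 in limb EGFP− and 1 in trunk EGFP− cells, with 7 distal intervals in trunk EGFP− alone of the pair, 9 of the reverse and 1 member with a promoter interval in limb EGFP− alone of the pair. The 20000 strongest intervals per list left 14, 16, 12 and 13 distal intervals, promoter intervals at 1, 2 and 3 members in limb EGFP+, limb EGFP− and trunk EGFP− cells, 2 members with a trunk EGFP− promoter interval alone of the pair against 1 of the reverse, and 6 against 9 distal intervals. The order of the promoter counts of the EGFP− pair turned there, since at the full lists it was 1 against 3. Windows of 50 kb gave 28, 21, 12 and 17 distal intervals with 7 against 10 without a counterpart, and windows of 200 kb gave 119, 78, 83 and 68 with 29 against 37. With 1 start site per gene, 3 members had a trunk EGFP− promoter interval, and with a promoter window of 1 kb on each side 2 members had one in trunk EGFP− and not limb EGFP− cells. Leaving out the windows of Neurog1 and Hand2, added after the values were seen, gave 22 distal intervals in limb EGFP− cells and 9 without a trunk EGFP− counterpart. The reads behind single intervals, 8 to 47 at members' promoters, limit each statement on a missing peak.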
